A study of Mus musculus with 19 samples.

Results

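Transcripts of 9 genes of the transforming growth factor beta (TGF-beta) pathway were measured by RNA-seq in mouse mammary glands and mammary tumors. They were the ligand genes *Tgfb1*, *Tgfb2* and *Tgfb3*, the receptor genes *Tgfbr1*, *Tgfbr2* and *Tgfbr3*, the feedback inhibitor *Smad7*, the activin subunit gene *Inhba* and the matrix gene *Ltbp2*. The genes were taken by name, and each matched 1 entry, so that they made up 9 of the 46078 genes in the deposited table.

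TGF-beta is secreted in a latent form, tied to the extracellular matrix by latent TGF-beta binding proteins, and is released there by integrins, thrombospondin and proteases. The active ligand brings the type II receptor, encoded by *Tgfbr2*, together with the type I receptor, encoded by *Tgfbr1*. The type I receptor then phosphorylates SMAD proteins that carry the signal to the nucleus. In the mammary gland the pathway is known for holding back the growth of ducts and for shaping the stroma. In breast cancer it is known both for restraining early growth and for favouring fibroblast activation and invasion later.

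The study asked what mutant p53 in stromal fibroblasts does to breast tumors driven by the *MMTV-neu* transgene, which expresses ERBB2 in mammary epithelium. The 19 libraries formed 5 groups of female mice. The study's methods give a mixed FVB, C57 and BALB/c background for the mice with *MMTV-neu* and name none for the wild-type mice. T NP tumors and MG NP glands (n = 4 each) came from *NP* mice, which carried *MMTV-neu*, *Fsp-Cre* and 1 copy of the conditional *p53wm-R172H* allele, a *Trp53* allele that Cre switches from wild-type p53 to the R172H mutant. Of the T NP tumors, replicates 1 and 2 share a number in their library names, and whether they came from 1 mouse is not stated. T N tumors (n = 4) came from *N* mice with *MMTV-neu* and *Fsp-Cre*. Of the MG N glands (n = 4), replicate 1 had that same genotype, whereas replicates 2 to 4 had *MMTV-neu* and the conditional allele without Cre. MG WT glands (n = 3) came from age-matched wild-type mice, and the *N* and *NP* glands from tumor-bearing mice but without malignant lesions. *Fsp-Cre* is driven by the promoter of *S100a4*, a gene taken to mark fibroblasts, which had 0 to 53.41 normalized counts in these libraries. *Trp53* had means of 687.1 to 1916 normalized counts over the groups, a level that says nothing of which allele was expressed. *Erbb2* had 73426 to 155042 normalized counts in T N and 84390 to 117600 in T NP, against at most 14718 in glands.

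Values are normalized counts, which are reads divided by 1 size factor for each library. The MG WT libraries held 54677315 to 62645459 reads on genes, and the other 16 held 20899152 to 27262440. Differences are given as log2 fold changes of the normalized count plus 1, with the standard error (SE) after ±. A gene was called where limma gave an adjusted p under 0.05 over all genes tested and the change was at least 2-fold. All 9 genes passed the filter on low values in every comparison. The share of all genes whose groups did not overlap is not given here, so statements on overlap only describe the single genes.

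Markers of the cell types in the tissue set the libraries apart before any pathway gene was considered. The summed normalized count of 9 luminal epithelium markers was 92588, 101541 and 105689 in MG WT, 28207, 16097, 32420 and 17018 in MG N, 27118, 31802, 30737 and 11485 in MG NP, 117831, 187428, 110821 and 136213 in T N and 114521, 154451, 144125 and 146535 in T NP. Tumors and MG WT glands were thus rich in luminal transcripts, led by *Epcam* (mean 39778) in T N, *Krt18* (mean 34252) in T NP and *Krt19* (mean 19170) in MG WT. The 8 basal epithelium markers summed to 69541, 58751 and 72055 in MG WT, 11747, 17926, 23968 and 10369 in MG N, 19768, 16381, 20838 and 9256 in MG NP, 2092, 1348, 5056 and 1431 in T N and 2134, 1985, 3446 and 3255 in T NP, high in MG WT and low in tumors. The most abundant of them was *Acta2* in MG WT and both tumor groups, with means of 16625 in MG WT and 1376 in T NP.

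White adipocyte markers (9 genes) summed to 4642, 5441 and 4003 in MG WT, 366021, 351271, 300271 and 411034 in MG N, 148248, 164842, 216020 and 388588 in MG NP, 6810, 1594, 9156 and 2799 in T N and 3941, 5005, 3155 and 3090 in T NP. They were thus low in MG WT glands and tumors and high in *N* and *NP* glands, where *Fabp4* (mean 109956) led in MG N and *Cfd* (mean 72523) in MG NP. The 12 skeletal muscle markers summed to 218.8, 191.3 and 221.7 in MG WT, 13947, 18054, 9348 and 363.5 in MG N, 411299, 2959240, 12452 and 1647726 in MG NP, 3796, 1021, 30762 and 288.3 in T N and 127.8, 1599, 6209 and 6872 in T NP, with *Myh4* (mean 409739) in front in MG NP, so that MG NP replicates 1, 2 and 4 stood far above every other library. MG NP replicate 4 also had brown adipocyte markers (5 genes) at 77967, led by *Ucp1*, against 45.99 to 4508 in every other library. The 9 fibroblast markers, led by *Col3a1*, summed to 39564, 65509 and 59002 in MG WT, 146359, 489369, 277938 and 172731 in MG N, 66934, 78407, 153727 and 92833 in MG NP, 42988, 29134, 270057 and 38270 in T N and 26992, 37214, 55872 and 36355 in T NP. They were highest in MG N replicate 2, and T N replicate 3 was above every other tumor.

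The 10 immediate-early genes, which switch on within minutes of a stimulus, summed to 347059, 452820 and 444844 in MG WT, 3094, 6736, 6896 and 3090 in MG N, 4152, 8630, 6484 and 4857 in MG NP, 6778, 10775, 7972 and 9204 in T N and 8165, 9325, 8618 and 10383 in T NP. Every MG WT library was thus far above all others, with *Fos* at a mean of 93692. Macrophage markers (8 genes) summed to 3263 to 4290 in MG WT, 20875 to 56446 in MG N, 13736 to 21258 in MG NP, 8719 to 20053 in T N and 9694 to 14853 in T NP. Endothelium markers (8 genes) summed to 10194 to 15257, 16933 to 29885, 14907 to 27335, 3464 to 5956 and 3203 to 5129 in the same groups, so that tumors were lowest. T cell markers (7 genes) summed to 815.4 to 1259, 1247 to 4701, 376.8 to 5858, 121.2 to 327.2 and 71.75 to 307.4, and B cell markers (6 genes) to 1205 to 2392, 95.39 to 7976, 275.5 to 13983, 24.23 to 491.8 and 23.54 to 385.5. Lymphocyte transcripts were thus lower in tumors than in any gland for T cell markers, and B cell markers were below every gland in 6 of 8 tumors. T N replicate 2 lacked reads for *Cd79a*, *Cr2*, *Pax5*, *Lep*, *Plin1*, *Myh2*, *Cox8b* and *S100a4*. In MG WT replicate 3, *Tnnc2* and *Cox8b* were at 0. *Elovl3* was at 0 in MG NP replicate 2 and in T NP replicates 1, 3 and 4. *Cr2* was at 0 in T N replicate 1 and T NP replicates 1 and 4, and *Pax5* in T NP replicate 3. In bulk tissue, fewer cells of a type and less RNA per cell cannot be told apart.

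**Figure D1:**
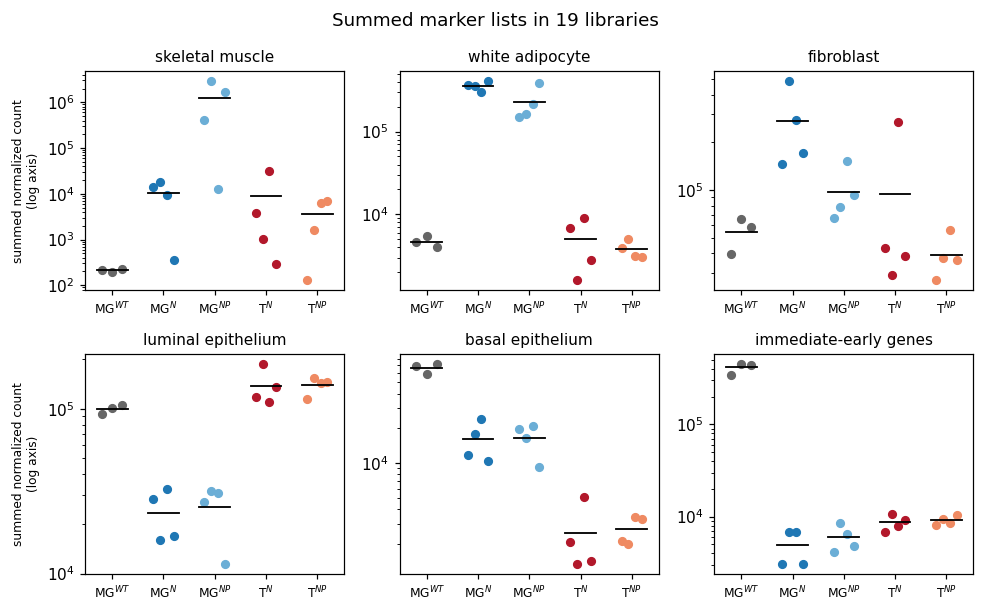
Summed normalized counts of 6 marker lists on log axes, with 1 point for each of the 19 libraries and a bar at the group mean. MG WT glands had few adipocyte and many immediate-early transcripts, and MG NP replicates 1, 2 and 4 many skeletal muscle transcripts.

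*Tgfb3* (ENSMUSG00000021253, chr12:86056745-86079041, minus strand), whose product is needed for palate fusion and is abundant in stroma, was the most abundant ligand transcript per kb of exon. Its normalized counts were 6267, 7753 and 6402 in the MG WT libraries, 2533, 1970, 2907 and 1571 in MG N, 1867, 2965, 2423 and 1888 in MG NP, 14303, 4542, 15067 and 9381 in T N and 9643, 12240, 15692 and 15443 in T NP. Both tumor groups lay above all *N* and *NP* glands, and T N replicate 2, the lowest tumor, was also below every MG WT gland. From high to low the means ran T NP (13255 ± 2875, SD), T N (10823 ± 4887), MG WT (6808 ± 821.5), MG NP (2286 ± 520.8) and MG N (2245 ± 592). The tumor groups overlapped each other, as did MG NP and MG N, and T N overlapped MG WT. *Ttll5* lies across *Tgfb3* on the opposite strand with a mean of 1317 normalized counts, and without knowing whether counting used strand, reads of the 2 genes cannot be told apart where they overlap.

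*Tgfb2* (ENSMUSG00000039239, chr1:186622792-186705989, minus strand), the ligand that depends most on the coreceptor betaglycan, had normalized counts of 906.2, 552 and 1030 in the MG WT libraries, 303.1, 305.7, 392.6 and 137 in MG N, 326.2, 408.2, 485.2 and 281.5 in MG NP, 1290, 712.3, 1226 and 848.5 in T N and 1262, 1103, 1211 and 1704 in T NP. Every tumor was above every *N* and *NP* gland, and MG WT glands lay between them, overlapping T N only. The order of means was T NP (1320 ± 264.7), T N (1019 ± 282.4), MG WT (829.5 ± 248.2), MG NP (375.3 ± 90.15) and MG N (284.6 ± 106.8), and the neighbouring groups overlapped except MG WT and MG NP.

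*Tgfb1* (ENSMUSG00000002603, chr7:25687002-25705077, plus strand), the ligand best known from immune cells and platelets, behaved differently. Its normalized counts were 974.5, 1071 and 927 in the MG WT libraries, 300.6, 547.1, 320.2 and 388.3 in MG N, 591.3, 264.1, 603.3 and 218.2 in MG NP, 157.9, 504.7, 263.6 and 547.4 in T N and 168.2, 173.2, 301.3 and 257.2 in T NP. MG WT glands lay above all other libraries, whereas the 4 groups of *N* and *NP* mice overlapped one another, MG N and T NP only just. T N tumors fell into a low and a high pair, with replicates 1 and 3 below replicates 2 and 4. The means were 990.8 ± 73.34 in MG WT, 419.2 ± 206.5 in MG NP, 389 ± 111.8 in MG N, 368.4 ± 187.9 in T N and 225 ± 65.25 in T NP.

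Levels of different genes were compared per kb of exon. Per kb, *Tgfb3* made up 85.4% ± 2.4 (SD) of the summed ligand transcripts in MG WT, 83.6% ± 4.1 in MG N, 81.9% ± 5.8 in MG NP, 91.5% ± 4.1 in T N and 93.4% ± 1.2 in T NP. It was thus the main ligand transcript in every group. The share of *Tgfb1* was 10.4% ± 4.3 in MG N and 10.3% ± 5.2 in MG NP. In tumors it was 2.9% ± 2.6 in T N, from 0.7% to 6.4% over the single tumors, and 1.1% ± 0.1 in T NP. The share of *Tgfb2* kept between 5.5% ± 1.6 in T N and 7.9% ± 0.9 in MG NP. The sum of the 3 ligand genes per kb was 2352 ± 215.9 in MG WT, 789.9 ± 180.8 in MG N, 823.5 ± 163.2 in MG NP, 3448 ± 1461 in T N and 4191 ± 882.7 in T NP.

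**Figure D2:**
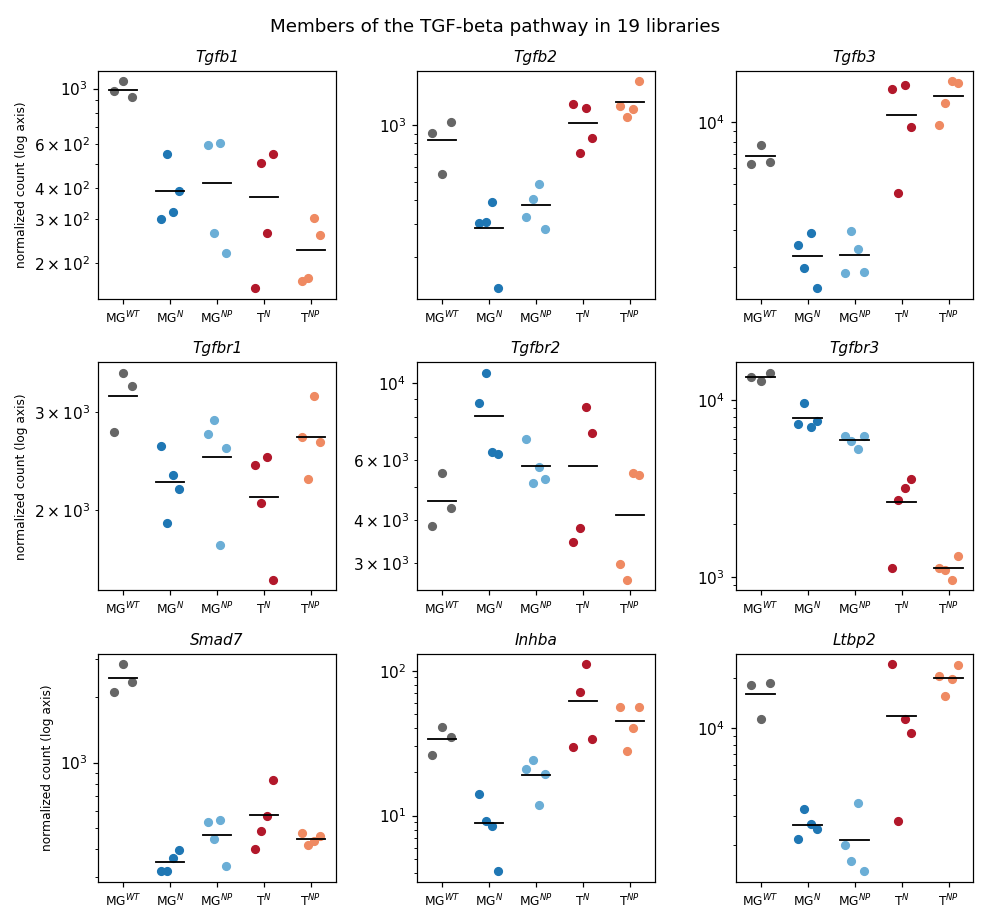
Normalized counts of the 9 genes on log axes, with 1 point for each of the 19 libraries and a bar at the group mean. *Tgfb2*, *Tgfb3* and *Inhba* were higher in every tumor than in every *N* and *NP* gland, and *Tgfbr3* was lower in every tumor than in every gland.

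*Tgfbr3* (ENSMUSG00000029287, chr5:107106570-107289629, minus strand) encodes betaglycan, the coreceptor that presents ligand to the signalling receptors and that is often lost in breast cancer. Its normalized counts were 13381, 12770 and 14236 in the MG WT libraries, 7280, 9539, 6991 and 7612 in MG N, 6284, 5881, 5305 and 6232 in MG NP, 1128, 2726, 3177 and 3591 in T N and 1127, 1103, 967.7 and 1322 in T NP. The mean was 13462 ± 736.1 in MG WT, 7856 ± 1151 in MG N, 5926 ± 450.7 in MG NP, 2656 ± 1078 in T N and 1130 ± 146.1 in T NP, in this order from high to low. Only T N and T NP overlapped, through T N replicate 1, which was as low as the T NP tumors while replicates 2 to 4 were above all of them.

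*Tgfbr1* (ENSMUSG00000007613, chr4:47353222-47414931, plus strand), the type I receptor gene, was the steadiest of the 9, from 1502 in T N replicate 4 to 3523 in MG WT replicate 2, a 2.35-fold range. Its means were 3204 ± 396 in MG WT, 2704 ± 378.4 in T NP, 2487 ± 520.3 in MG NP, 2247 ± 293.5 in MG N and 2114 ± 447.8 in T N, and each of these groups overlapped its neighbours. *Tgfbr2* (ENSMUSG00000032440, chr9:116084293-116175360, minus strand), the type II receptor gene, ran from 2685 in T NP replicate 2 to 10744 in MG N replicate 2. Its means were 8014 ± 2167 in MG N, 5756 ± 792 in MG NP, 5733 ± 2503 in T N, 4552 ± 829.3 in MG WT and 4142 ± 1515 in T NP, again with overlap between neighbours. In both tumor groups *Tgfbr2* split into replicates 1 and 2, which were low, and replicates 3 and 4, which were high.

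Per kb, *Tgfbr3* was 66.4% ± 4.1 (SD) of the summed receptor transcripts in MG WT and 47.7% ± 3.5 in MG N, but 27.8% ± 7.8 in T N and 16.3% ± 3.7 in T NP. *Tgfbr1* took 15.8% ± 1.3 in MG WT and 38.5% ± 5.1 in T NP. *Tgfbr2* took 17.9% ± 2.8 in MG WT, 47.5% ± 7.5 in T N and 45.2% ± 7.6 in T NP. Betaglycan was the most abundant of the 3 in every gland and *Tgfbr2* in every T N tumor, whereas among T NP tumors *Tgfbr1* led in replicates 1 and 2 and *Tgfbr2* in replicates 3 and 4.

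*Smad7* (ENSMUSG00000025880, chr18:75367529-75395935, plus strand), an inhibitory SMAD that TGF-beta itself induces as feedback, had normalized counts of 2117, 2833 and 2353 in the MG WT libraries, 319.7, 317.2, 363.4 and 397.5 in MG N, 532.2, 446.8, 544.8 and 335.7 in MG NP, 403.3, 484.7, 568.6 and 833.3 in T N and 477.6, 417.2, 437.7 and 459.5 in T NP. MG WT glands stood above all 16 other libraries with no overlap, at a mean of 2434 ± 364.8 against 572.5 ± 186.5 in T N, 464.9 ± 96.48 in MG NP, 448 ± 26.22 in T NP and 349.5 ± 38.44 in MG N. The last 4 overlapped their neighbours in that order, apart from T NP and MG N.

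*Inhba* (ENSMUSG00000041324, chr13:16011851-16031621, plus strand), which encodes the subunit of activin A, was rare, from 4 to 110 reads outside MG WT and 61 to 84 in its deeper libraries. The normalized counts were 26.01, 41 and 34.62 in the MG WT libraries, 14.01, 9.194, 8.452 and 4.12 in MG N, 20.98, 24.27, 11.91 and 19.37 in MG NP, 29.54, 71.65, 111.1 and 33.85 in T N and 56.06, 28.06, 40.26 and 56.18 in T NP. All tumors were above all *N* and *NP* glands, and T N replicates 2 and 3 were the highest. In order, the means were 61.53 ± 38.07 in T N, 45.14 ± 13.62 in T NP, 33.88 ± 7.521 in MG WT, 19.13 ± 5.226 in MG NP and 8.944 ± 4.052 in MG N, and neighbours overlapped except MG WT and MG NP.

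*Ltbp2* (ENSMUSG00000002020, chr12:84783212-84876532, minus strand) encodes an elastic fibre protein of the latent TGF-beta binding protein family, the member that does not itself bind latent TGF-beta. Its normalized counts were 18223, 11458 and 18631 in the MG WT libraries, 2160, 3310, 2661 and 2484 in MG N, 1993, 1609, 3582 and 1392 in MG NP, 24325, 2793, 11355 and 9346 in T N and 20567, 15616, 19732 and 23869 in T NP. T NP tumors and MG WT glands were high, *N* and *NP* glands were low, and T N tumors spread from 2793 to 24325. T N replicate 2 lay within the MG N glands, and it was also the T N tumor lowest in *Tgfb3*. The means were 19946 ± 3395 in T NP, 16104 ± 4028 in MG WT, 11955 ± 9021 in T N, 2654 ± 484.1 in MG N and 2144 ± 990.3 in MG NP, and each overlapped its neighbours.

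T N tumors were compared with MG N glands to see how the pathway differs between tumor and gland when stromal p53 is wild type. All T N tumors carried *Fsp-Cre*, which MG N replicates 2 to 4 lacked, so the comparison does not fully separate tissue from *Fsp-Cre*. 2 ligand genes, the activin subunit gene and *Ltbp2* rose in tumors, and betaglycan fell. *Inhba* was 5.85-fold higher (log2 2.55 ± 0.52, limma adjusted p = 0.00378, higher in 4 of 4 tumors). *Tgfb3* was 4.48-fold higher (log2 2.16 ± 0.38, limma adjusted p = 0.00189) and *Tgfb2* 3.71-fold higher (log2 1.89 ± 0.34, limma adjusted p = 0.00216), both in 4 of 4 tumors. *Ltbp2* was 3.51-fold higher (log2 1.81 ± 0.55, limma adjusted p = 0.0236), with 3 of 4 tumors above every gland. *Tgfbr3* was 3.2-fold lower (log2 -1.68 ± 0.34, limma adjusted p = 0.00358), below every gland in 4 of 4 tumors. Thus 4 of 9 genes rose and 1 fell, where 12.8% of 17950 genes tested rose and 22.3% fell. *Smad7* passed the p threshold but not 2-fold (0.66 ± 0.23, limma adjusted p = 0.0395). *Tgfb1* differed by -0.21 ± 0.41 (95% interval -1.13 to 0.72), *Tgfbr1* by -0.11 ± 0.18 (-0.53 to 0.31) and *Tgfbr2* by -0.55 ± 0.33 (-1.3 to 0.19), and none of these was called. The call of *Ltbp2* was lost without T N replicate 3 (log2 1.71), MG N replicate 1 (1.72) or MG N replicate 4 (1.79). Of the markers tested beside these genes, 8 of 9 luminal and 4 of 10 immediate-early markers rose. Lower were 9 of 9 white adipocyte, 7 of 9 fibroblast, 1 of 9 luminal, 8 of 8 basal, 8 of 8 endothelium, 3 of 8 macrophage, 7 of 7 T cell, 5 of 5 B cell and 1 of 10 immediate-early markers, and the part of all these in the result was not tested.

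T NP tumors against MG NP glands asked the same where fibroblasts could carry mutant p53. The same 5 genes were called in the same directions. *Ltbp2* was 9.86-fold higher (log2 3.3 ± 0.29, limma adjusted p = 4.79e-05) and *Tgfb3* 5.8-fold higher (log2 2.53 ± 0.21, limma adjusted p = 4.12e-05), each in 4 of 4 tumors. *Tgfb2* was 3.54-fold higher (log2 1.82 ± 0.21, limma adjusted p = 1.84e-04) and *Inhba* 2.27-fold higher (log2 1.19 ± 0.35, limma adjusted p = 0.0187), again in 4 of 4. *Tgfbr3* was 5.26-fold lower (log2 -2.4 ± 0.13, limma adjusted p = 7.88e-06), in 4 of 4 tumors. Thus 4 of 9 genes rose and 1 fell, where 14.7% of 17880 genes tested rose and 24% fell. *Tgfb1* differed by -0.79 ± 0.39 (95% interval -1.67 to 0.08), *Tgfbr2* by -0.54 ± 0.26 (-1.13 to 0.05), *Tgfbr1* by 0.14 ± 0.19 (-0.29 to 0.56) and *Smad7* by -0.03 ± 0.18 (-0.44 to 0.39), none of them called. Of the markers, 8 of 9 luminal and 4 of 10 immediate-early markers rose in this comparison. Lower were 12 of 12 skeletal muscle, 9 of 9 white adipocyte, 1 of 3 brown adipocyte, 5 of 8 fibroblast, 1 of 9 luminal, 7 of 8 basal, 8 of 8 endothelium, 2 of 8 macrophage, 6 of 7 T cell, 6 of 6 B cell and 1 of 10 immediate-early markers, and the part of all these in the result was not tested. With the skeletal muscle score as a covariate the call of *Inhba* was lost (log2 1.66) while the other 4 were called, *Ltbp2* at 2.52, and *Tgfb1*, *Tgfbr1*, *Tgfbr2* and *Smad7* stood uncalled at -1.32, 0.64, -0.21 and -0.37. The muscle marker sum was at least 12452 in every MG NP gland and at most 6872 in every T NP tumor. This fit therefore cannot cleanly separate muscle content from group. *Inhba* also lost its call without MG NP replicate 3 (0.99), T NP replicate 1 (1.07) or T NP replicate 4 (1.06). *Tgfb1* was called lower without MG NP replicate 4 (log2 -1.06) and without replicates 2 and 4 (-1.45), the 2 MG NP glands with the most muscle transcripts, an omission chosen after seeing the data.

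MG N glands were compared with MG WT glands to see how glands of tumor-bearing mice differ from normal ones. 6 of 9 genes fell and none rose, where 17.9% of 19017 genes tested fell and 19.1% rose. *Smad7* was 6.93-fold lower (log2 -2.79 ± 0.14, limma adjusted p = 3.42e-06) and *Ltbp2* 6-fold lower (log2 -2.58 ± 0.21, limma adjusted p = 3.26e-05). *Inhba* fell 3.7-fold (log2 -1.89 ± 0.41, limma adjusted p = 0.00456). All 3 ligand genes fell, *Tgfb3* with log2 -1.63 ± 0.21, *Tgfb2* with -1.59 ± 0.37 and *Tgfb1* with -1.38 ± 0.21 (limma adjusted p = 3.27e-04, 0.00636 and 7.40e-04). Each of these 6 was below every MG WT gland in 4 of 4 MG N glands. The uncalled receptor genes did not overlap between the 2 groups either, so lack of overlap was not particular to the 6. The receptors passed the p threshold but not 2-fold, *Tgfbr2* at 0.79 ± 0.22, *Tgfbr1* at -0.51 ± 0.14 and *Tgfbr3* at -0.79 ± 0.13 (limma adjusted p = 0.0144, 0.0132 and 0.00136). In the same comparison 9 of 9 luminal, 8 of 8 basal and 10 of 10 immediate-early markers fell. Higher were 9 of 12 skeletal muscle, 9 of 9 white adipocyte, 5 of 5 brown adipocyte, 7 of 9 fibroblast, 4 of 8 endothelium, 8 of 8 macrophage and 2 of 7 T cell markers, and the MG WT libraries were sequenced more deeply. These differences and the groups cannot be told apart.

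In MG NP glands against MG WT glands, 6 of 9 genes fell and none rose, where 16.2% of 19065 genes tested fell and 16.4% rose. *Ltbp2* was 7.86-fold lower (log2 -2.97 ± 0.34, limma adjusted p = 7.41e-04) and *Smad7* 5.28-fold lower (log2 -2.4 ± 0.21, limma adjusted p = 2.65e-04). Also lower were *Tgfb3* (log2 -1.59 ± 0.19), *Tgfb1* (-1.38 ± 0.39), *Tgfbr3* (-1.19 ± 0.12) and *Tgfb2* (-1.12 ± 0.28) (limma adjusted p = 8.99e-04, 0.0236, 4.39e-04 and 0.0144), each in 4 of 4 glands. *Inhba* differed by -0.81 ± 0.34 (95% interval -1.6 to -0.02), *Tgfbr1* by -0.39 ± 0.2 (-0.86 to 0.09) and *Tgfbr2* by 0.34 ± 0.17 (-0.05 to 0.74), none of them called. This comparison shares its MG WT libraries with the one before, and in it 9 of 9 luminal, 8 of 8 basal and 10 of 10 immediate-early markers fell. Higher were 12 of 12 skeletal muscle, 9 of 9 white adipocyte, 3 of 4 brown adipocyte, 3 of 9 fibroblast, 2 of 8 endothelium and 7 of 8 macrophage markers. With the skeletal muscle score as a covariate only *Tgfbr3* kept its call (log2 -1.45), *Tgfb1* turning to 0.46 and *Tgfb2*, *Tgfb3*, *Smad7* and *Ltbp2* standing at -0.42, -1.61, -1.75 and -1.18. The 3 uncalled genes stayed uncalled with it, *Inhba* at -2.01, *Tgfbr1* at -1.35 and *Tgfbr2* at 0.53. The muscle marker sum was at most 221.7 in every MG WT gland and at least 12452 in every MG NP gland. This covariate and the group therefore cannot be cleanly separated, and lost calls do not show that muscle content accounts for the differences. *Tgfb1* lost its call without MG WT replicate 1, 2 or 3 (-1.39, -1.32 and -1.43) and without MG NP replicates 2 and 4 together (-0.73), and *Tgfb2* without MG WT replicate 1 (-1.04), MG WT replicate 3 (-0.94) or MG NP replicate 4 (-1).

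**Figure D3:**
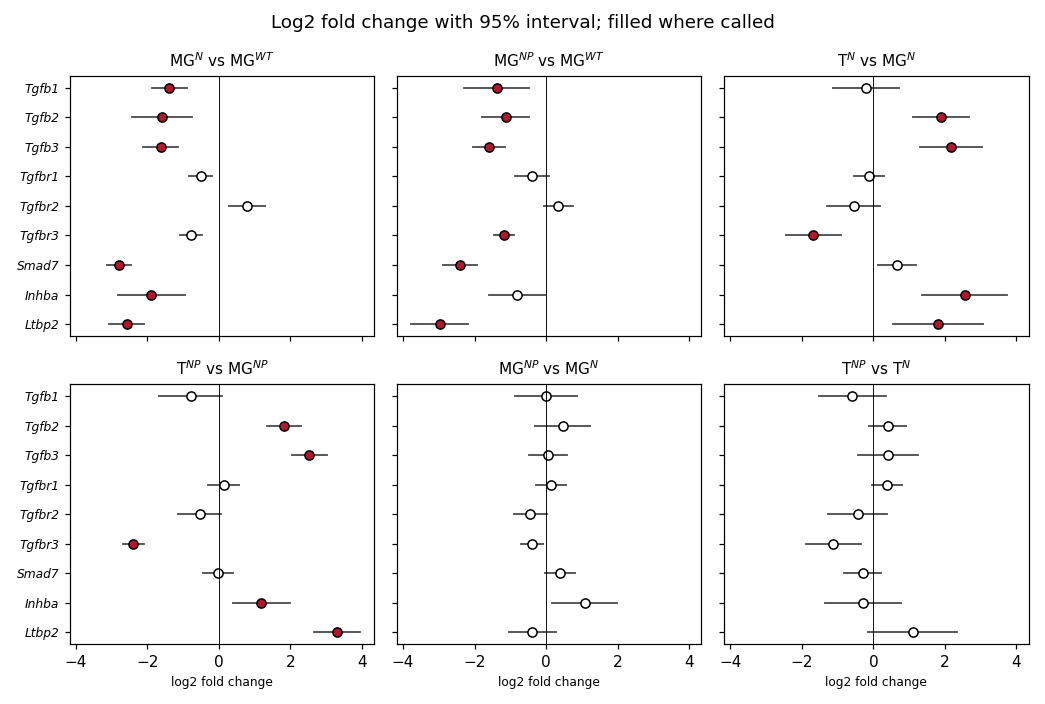
Log2 fold change of each gene in 6 comparisons, as a point with its 95% interval, filled where called at adjusted p under 0.05 and at least 2-fold. *Tgfb2*, *Tgfb3*, *Inhba* and *Ltbp2* were higher and *Tgfbr3* lower in tumors than in glands of both genotypes, and no gene was called between *NP* and *N* mice.

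MG NP and MG N glands differ in mutant p53 and, for MG N replicates 2 to 4, also in *Fsp-Cre*, which those 3 lack, so the comparison does not separate the 2. Between them limma called none of the 9 genes and 0% of 18563 genes tested. At an unadjusted p under 0.05 there were 1950 genes and 2 of the 9, *Inhba* (1.08 ± 0.4, 95% interval 0.16 to 1.99) and *Tgfbr3* (-0.4 ± 0.14, -0.71 to -0.09). edgeR called 0 genes and DESeq2 519, of which none was among the 9. The other intervals were -0.87 to 0.87 for *Tgfb1*, -0.3 to 1.23 for *Tgfb2*, -0.49 to 0.57 for *Tgfb3*, -0.29 to 0.55 for *Tgfbr1*, -0.91 to 0.02 for *Tgfbr2*, -0.04 to 0.82 for *Smad7* and -1.05 to 0.27 for *Ltbp2*. In this fit, differences of 2-fold lay outside the intervals for *Tgfb1*, *Tgfb3*, *Tgfbr1*, *Tgfbr2*, *Tgfbr3* and *Smad7* and inside them for *Tgfb2*, *Inhba* and *Ltbp2*. Leaving out MG NP replicate 3, the gland with the fewest muscle transcripts of its group, gave 318 genes called, none of them among the 9. None of the markers was called by limma here, the 12 skeletal muscle markers having a median log2 difference of 6.24, and with the skeletal muscle score as a covariate *Inhba* stood at 0.17, *Tgfb1* at 0.65, *Smad7* at 0.74 and *Ltbp2* at 0.2. Without MG NP replicates 2 and 4, an omission chosen after seeing the data, *Inhba* stood at 0.86, *Tgfb1* at 0.66, *Smad7* at 0.63 and *Ltbp2* at 0.03. The intervals above take no account of such choices.

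Between T NP and T N tumors, none of the 9 genes was called, where limma called 7 of 16638 genes tested (0.0421%), 6 higher (*Krt17*, which is also a basal marker, *Rims2*, *Tmem229b*, *Reep1*, *Gm9522* and *Gm29562*) and 1 lower (*Trim5*), named after their values were seen. *Tgfbr3* had the smallest p of the 9 (-1.12 ± 0.33, 95% interval -1.87 to -0.36, limma adjusted p = 0.618), with 3 of 4 T N tumors above all T NP tumors. It was called by DESeq2 (-1.24) and without T N replicate 1 (-1.48), and under its other alternatives it was not. *Ltbp2* differed by 1.1 ± 0.55 (-0.15 to 2.35), *Tgfb1* by -0.59 ± 0.41 (-1.52 to 0.35), *Tgfbr2* by -0.44 ± 0.36 (-1.26 to 0.39) and *Tgfb3* by 0.41 ± 0.37 (-0.43 to 1.25). *Tgfb2* differed by 0.4 ± 0.23 (-0.12 to 0.91), *Tgfbr1* by 0.37 ± 0.19 (-0.05 to 0.79), *Smad7* by -0.3 ± 0.22 (-0.81 to 0.21) and *Inhba* by -0.29 ± 0.47 (-1.35 to 0.78). Of the 9 genes 1 had an unadjusted p under 0.05, against 1210 of all genes; edgeR called 0 genes and DESeq2 85. T NP replicates 1 and 2 carry the same number in their library names and may come from 1 mouse, and with these averaged no gene was called. Leaving out T N replicate 1 gave 52 genes, and leaving out any 1 of the other 7 tumors gave 0.

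Whether tumor and gland differed more in *NP* than in *N* mice was tested as the interaction of tissue and genotype, with the same mixed MG N genotypes. limma called 0% of 19367 genes tested and none of the 9, edgeR called 0 genes and DESeq2 327, none of them among the 9. At an unadjusted p under 0.05 there were 1536 genes and 3 of the 9, *Ltbp2* (1.49 ± 0.67, 95% interval 0.07 to 2.91), *Smad7* (-0.69 ± 0.3, -1.32 to -0.06) and *Inhba* (-1.36 ± 0.64, -2.72 to just under 0), with limma adjusted p of 0.607, 0.585 and 0.628. A larger tumor difference in 1 genotype was therefore not shown for any of the 9.

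Around these 9, 7 lists held 76 further genes of the pathway, and for each list the 2 largest rises and falls among the genes called are named with 1 exception, T N before T NP and MG N before MG NP where 2 values are given. Over all genes tested the median log2 difference was -0.05 in T N against MG N, -0.07 in T NP against MG NP, 0.02 in MG N against MG WT and 0.02 in MG NP against MG WT. No gene of the lists was called by limma in MG NP against MG N, in T NP against T N or in the interaction. A gene named for 1 genotype only is thus not shown to be particular to it. In the other genotype it may lie outside the 2 largest changes. The mean of *Pmepa1*, named in T NP only, was 1575 in MG N and 5061 in T N. That of *Itgb8*, named as a fall in MG N only, was 4002 in MG WT and 882 in MG NP. For reading the counts of each list, the shares of all genes tested that rose and fell were 12.8% and 22.3% in T N against MG N, 14.7% and 24% in T NP against MG NP, 19.1% and 17.9% in MG N against MG WT, and 16.4% and 16.2% in MG NP against MG WT. In the 3 comparisons without limma calls DESeq2 called 5 (*Itgb6*, *Fstl1*, *Mstn*, *Col3a1* and *Postn*), 1 (*Bmp6*) and 1 (*Bmp6*) of them, named after their values were seen.

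Of the genes for activation and latent binding, 2 rose and 4 fell of 12 tested in T N against MG N (median log2 difference 0.14), and 2 rose and 4 fell of 12 tested in T NP against MG NP (median 0). *Thbs1*, whose product thrombospondin frees latent TGF-beta, rose (log2 2.23 ± 0.56 and 2.71 ± 0.55). Of the integrin genes whose products release the ligand, *Itgb6* rose (log2 2.17 ± 0.42) in T N and *Itgb8* (log2 1.4 ± 0.31) in T NP. *Ltbp4*, a latent TGF-beta binding protein gene, fell (log2 -3.28 ± 0.48 and -3.01 ± 0.25), and *Nrros*, which anchors latent TGF-beta on macrophages and microglia, fell (log2 -2.32 ± 0.35 and -2.17 ± 0.38). Against MG WT, 3 rose and 9 fell of 12 tested in MG N (median -1.36) and 0 rose and 8 fell of 12 tested in MG NP (median -1.55). There *Thbs1* fell (log2 -2.72 ± 0.37 and -3.46 ± 0.51), *Itgb8* (log2 -2.27 ± 0.3) in MG N and *Ltbp3* (log2 -2.25 ± 0.22) in MG NP. The fibrillin gene *Fbn1* rose (log2 1.74 ± 0.45) and *Nrros* (log2 1.31 ± 0.27) in MG N, beside the rise of all 8 macrophage markers.

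Of the activin ligands and inhibitors, 1 rose and 3 fell of 7 tested in T N against MG N (median log2 difference -1.84), and 2 rose and 4 fell of 7 tested in T NP against MG NP (median -1.32). The activin inhibitor gene *Fstl3* rose (log2 1.85 ± 0.26 and 1.77 ± 0.33), whereas *Fst*, the gene of follistatin, fell (log2 -3.71 ± 0.54 and -3.34 ± 0.34). *Inhbb*, the other activin subunit gene, rose (log2 1.78 ± 0.31) in T NP, and *Gdf11* fell (log2 -2.69 ± 0.47) in T N. *Mstn*, the myostatin gene of skeletal muscle, fell (log2 -7.84 ± 1.84) in T NP, beside the fall of all 12 skeletal muscle markers. Against MG WT, 2 rose and 4 fell of 7 tested in MG N (median -1.27) and 1 rose and 3 fell of 7 tested in MG NP (median -0.98). *Mstn* was called higher in both, with 0 reads in all 3 MG WT libraries against 1.03 to 77 normalized counts in MG N and 8.665 to 4729 in MG NP, and in MG N its call was lost with 5 groups in 1 fit. Its fold against these libraries has no fixed size, and as the highest of the list there it leaves the 2 medians unaffected. *Fstl1* rose (log2 1.67 ± 0.37) in MG N. *Inhbb* fell (log2 -2.04 ± 0.31 and -2.38 ± 0.37), *Fstl3* (log2 -1.55 ± 0.24) in MG N and *Fst* (log2 -1.84 ± 0.28) in MG NP.

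Of the other receptors of the superfamily, 2 rose and 2 fell of 11 tested in T N against MG N (median log2 difference -0.19), and 0 rose and 3 fell of 11 tested in T NP against MG NP (median -0.38). The largest difference was that of *Acvr1c*, a type I receptor gene of adipocytes, which fell (log2 -8.1 ± 0.89 and -7.45 ± 0.8), beside the fall of all 9 white adipocyte markers. *Eng*, the endoglin gene of endothelium, fell (log2 -1.99 ± 0.32) in T N, and its mean was 475.8 in T NP against 1947 in MG NP. All 8 endothelium markers fell in both comparisons. The BMP receptor gene *Bmpr1b* fell (log2 -3.72 ± 0.62) in T NP. *Amhr2* rose (log2 2.06 ± 0.47) and *Acvr1b*, a type I activin receptor gene, (log2 1.13 ± 0.13) in T N. Against MG WT, 1 rose and 5 fell of 11 tested in MG N (median -0.54) and 1 rose and 2 fell of 11 tested in MG NP (median -0.57). *Acvr1c* rose (log2 8.2 ± 0.35 and 7.34 ± 0.52), beside the rise of all 9 white adipocyte markers. *Acvr1* fell (log2 -1.3 ± 0.13 and -1.27 ± 0.23), *Bmpr1b* (log2 -2.29 ± 0.42) in MG N and *Bmpr2* (log2 -1.26 ± 0.24) in MG NP.

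Of the other 7 Smad genes, 0 rose and 1 fell of 7 tested in T N against MG N (median log2 difference -0.25), and 0 rose and 1 fell of 7 tested in T NP against MG NP (median -0.12). In both it was *Smad9*, a mediator of BMP signals, that fell (log2 -5.08 ± 0.62 and -3.74 ± 0.53). Against MG WT, 0 rose and 1 fell of 7 tested in MG N (median -0.82) and 0 rose and 2 fell of 7 tested in MG NP (median -0.53). The inhibitory *Smad6* fell (log2 -1.09 ± 0.31 and -1.33 ± 0.19), and *Smad1*, another BMP mediator, (log2 -1.22 ± 0.19) in MG NP. The mediators of TGF-beta itself, *Smad2*, *Smad3* and *Smad4*, were called in none of these 4 comparisons.

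Of the inhibitors of TGF-beta signalling, 5 rose and 1 fell of 10 tested in T N against MG N (median log2 difference 0.86), and 4 rose and 1 fell of 10 tested in T NP against MG NP (median 1.16). *Tgif1*, a corepressor of SMAD targets, rose (log2 2.34 ± 0.28 and 2.06 ± 0.18). The decoy receptor gene *Bambi* rose (log2 2.1 ± 0.48) in T N and *Pmepa1*, which TGF-beta induces as feedback, (log2 2.04 ± 0.28) in T NP. *Dcn*, whose product decorin binds TGF-beta in the matrix and which is also among the fibroblast markers, fell (log2 -5.54 ± 0.72 and -5.01 ± 0.24). Against MG WT, 1 rose and 6 fell of 10 tested in MG N (median -1.49) and 1 rose and 6 fell of 10 tested in MG NP (median -1.5). *Tgif2* fell (log2 -3.34 ± 0.31 and -3.8 ± 0.62) and *Tgif1* (log2 -3.24 ± 0.19 and -3.18 ± 0.21), while *Dcn* rose (log2 1.98 ± 0.21 and 1.37 ± 0.29).

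Of the TGF-beta target genes, 4 rose and 6 fell of 17 tested in T N against MG N (median log2 difference -0.56), and 2 rose and 6 fell of 17 tested in T NP against MG NP (median -0.16). *Bhlhe40*, a transcription factor gene that hypoxia also induces, rose (log2 2.87 ± 0.35 and 2.08 ± 0.33). *Tnc*, for the matrix protein tenascin C, rose (log2 2.23 ± 0.69) in T N. *Snai2*, a transcription factor of basal cells and of epithelial to mesenchymal transition, fell (log2 -3.98 ± 0.33 and -3.7 ± 0.41). The matrix gene *Postn* fell (log2 -2.39 ± 0.64) in T N, and *Acta2*, also a basal marker, (log2 -1.79 ± 0.29) in T NP. Against MG WT, 5 rose and 5 fell of 17 tested in MG N (median 0.79) and 4 rose and 7 fell of 17 tested in MG NP (median -0.48). *Col3a1*, which is also a fibroblast marker, rose (log2 2.9 ± 0.49) in MG N and *Cilp* (log2 2.88 ± 0.79) in MG NP, and *Adam12* rose (log2 2.48 ± 0.19 and 1.66 ± 0.47). *Bhlhe40* fell (log2 -3.29 ± 0.29 and -2.63 ± 0.4) and *Ccn2*, a matricellular gene that also answers to YAP and to stimuli that induce immediate-early genes, (log2 -2.55 ± 0.48 and -2.28 ± 0.43).

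Of the BMP ligands, antagonists and targets, 1 rose and 6 fell of 10 tested in T N against MG N (median log2 difference -1.73), and 1 rose and 7 fell of 10 tested in T NP against MG NP (median -2.25). *Id2*, a target of BMP signals, rose (log2 2.58 ± 0.29 and 2.87 ± 0.3). *Id1* and *Id3* of the same list, named here beyond the largest changes, went the other way. Their mean normalized counts were 419.8 and 944.4 in MG N against 116.7 and 169.4 in T N. In MG NP they were 524 and 914.9, against 92.44 and 128.3 in T NP. *Chrd*, for the antagonist chordin, fell (log2 -3.95 ± 0.62 and -3.2 ± 0.6), and the ligand gene *Bmp7* (log2 -2.84 ± 0.68 and -3.7 ± 0.39). Against MG WT, 1 rose and 3 fell of 10 tested in MG N (median -0.97) and 2 rose and 3 fell of 11 tested in MG NP (median -0.72). *Bmp7* fell (log2 -2.05 ± 0.46 and -2.07 ± 0.38) and *Bmp2* (log2 -1.15 ± 0.33 and -1.62 ± 0.31), while *Chrd* rose (log2 1.67 ± 0.21 and 1.31 ± 0.35) and *Bmp6* (log2 1.16 ± 0.33) in MG NP.

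Of the results for the genes named as the largest rises and falls called, 62 of 85 kept their call under every alternative. With the skeletal muscle score as a covariate, calls were lost or turned in MG NP against MG WT for *Thbs1* (-0.82), *Ltbp3* (-1.99), *Mstn* (-3.06), *Inhbb* (-1.9), *Smad1* (-0.75), *Dcn* (0.22), *Tgif2* (-0.78), *Cilp* (-0.98), *Adam12* (0.97), *Ccn2* (-2.06), *Chrd* (0.51), *Bmp6* (0.23), *Bmp7* (-0.52) and *Bmp2* (-1.46). In T NP against MG NP the same covariate ended the calls of *Thbs1* (0.97), *Itgb8* (1.44), *Fstl3* (1.74), *Mstn* (-1) and *Bmpr1b* (-1.57). In both comparisons the groups did not overlap in summed muscle markers, so these fits cannot cleanly separate muscle content from group. The cause was not tested. Leaving out 1 library ended calls in MG N against MG WT for *Smad6* without MG WT replicate 3 (-1.01) or MG N replicate 1 (-0.8) and for *Bmp2* without MG WT replicate 2 (-0.95), MG WT replicate 3 (-1.02) or MG N replicate 3 (-0.99). In T N against MG N it did so for *Tnc* without MG N replicate 3 (2.02), MG N replicate 4 (2.17) or T N replicate 2 (2.09). In MG NP against MG WT it did so for *Cilp* without MG WT replicate 1 (2.32) or MG WT replicate 3 (3.1), for *Adam12* without MG WT replicate 1 (1.59), MG WT replicate 2 (1.76) or MG WT replicate 3 (1.64), for *Chrd* without MG WT replicate 2 (1.27) or MG WT replicate 3 (1.15) and for *Bmp6* without MG WT replicate 1 (0.97), MG WT replicate 3 (1.06), MG NP replicate 2 (1.04) or MG NP replicate 4 (1.07). With 5 groups in 1 fit the calls of *Dcn* (1.37), *Chrd* (1.31) and *Bmp6* (1.16) were lost in MG NP against MG WT. Without MG NP replicates 2 and 4 together, those of *Smad1* (-0.98), *Chrd* (0.89) and *Bmp6* (0.83) were lost there.

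For each of the 9, the genes with the most similar pattern over the 19 libraries were sought among 14832 genes, by the mean absolute difference in log2 value after centring each gene on the mean of its 5 group means. They were *Cmip* (0.197), *Fryl* (0.252) and *Plagl2* (0.265) for *Tgfb1*, *Stap2* (0.277), *Ctbp2* (0.287) and *Fgd1* (0.292) for *Tgfb2* and *Col8a2* (0.253), *Hspa2* (0.259) and *Il17re* (0.27) for *Tgfb3*. For the receptors they were *Tmem251* (0.129), *2610301B20Rik* (0.149) and *Ralgapa1* (0.151) for *Tgfbr1*, *Ahi1* (0.246), *Slc36a4* (0.251) and *Itga1* (0.274) for *Tgfbr2* and *Gm37780* (0.3), *Jag1* (0.308) and *Paqr8* (0.332) for *Tgfbr3*. Closest to *Smad7* were *Sipa1l3* (0.169), *Tnrc18* (0.184) and *Rai1* (0.207). For *Inhba* they were *Cdc14a* (0.374), *Tmem144* (0.377) and *Cobl* (0.39), and for *Ltbp2* *Ptprf* (0.413), *Frmpd1* (0.42) and *Slco2a1* (0.421). These differences are larger for genes that vary more, and so were not ranked between the 9.

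Promoter windows of 300 bases, from 250 before to 50 after the start in the RefSeq table for GRCm38.p6, were found for 6 of the 9 genes and searched on both strands for 5 motifs. The 3 shown belong to genes that rose in tumors of both genotypes. Capitals mark TATAAA (in 13.6% of the 32851 windows of the table), CACGTG (7.15%), GGGCGG (35.7%) and CAGAC (49.6%), the last being letters that SMAD proteins can bind, and none of the marked matches overlap. The fifth, the AP-1 letters TGACTCA (5.2%), had no match in these 3 windows. *Tgfb2* is shown at chr1:186705940-186706239, minus strand, *Inhba* at chr13:16011601-16011900, plus strand and *Ltbp2* at chr12:84876442-84876741, minus strand.
Tgfb2: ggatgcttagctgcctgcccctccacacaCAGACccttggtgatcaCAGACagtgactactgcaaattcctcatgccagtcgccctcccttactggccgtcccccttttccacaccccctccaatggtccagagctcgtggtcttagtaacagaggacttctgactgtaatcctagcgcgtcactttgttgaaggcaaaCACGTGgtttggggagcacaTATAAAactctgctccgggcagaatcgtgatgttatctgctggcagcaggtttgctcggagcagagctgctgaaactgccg
Inhba: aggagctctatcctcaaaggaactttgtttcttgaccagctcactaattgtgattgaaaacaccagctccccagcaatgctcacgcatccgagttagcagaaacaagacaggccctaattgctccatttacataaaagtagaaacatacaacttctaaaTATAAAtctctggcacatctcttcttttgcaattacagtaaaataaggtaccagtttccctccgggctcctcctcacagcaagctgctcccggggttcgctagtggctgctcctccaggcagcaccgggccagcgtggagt
Ltbp2: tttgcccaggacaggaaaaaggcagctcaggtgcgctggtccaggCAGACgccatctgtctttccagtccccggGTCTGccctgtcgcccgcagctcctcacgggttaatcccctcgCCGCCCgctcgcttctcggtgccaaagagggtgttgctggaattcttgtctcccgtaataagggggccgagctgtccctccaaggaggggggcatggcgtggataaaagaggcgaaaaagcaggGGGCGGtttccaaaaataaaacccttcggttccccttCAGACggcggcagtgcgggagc
The window of *Tgfb2* held 1 TATAAA, 1 CACGTG and 2 CAGAC, that of *Inhba* 1 TATAAA, and that of *Ltbp2* 2 GGGCGG and 3 CAGAC. Their GC contents were 54.3%, 47.7% and 61%, against a median of 52.7% over the table. The window of *Tgfb1*, which was not called higher in tumors, was 77% GC with 6 GGGCGG and neither TATAAA nor CAGAC. *Tgfbr1* and *Tgfbr2* were not called higher in tumors either. That of *Tgfbr2* was 59% GC with 1 CAGAC. *Tgfbr1* had a window of 74.7% GC with 2 GGGCGG and another of 52% GC with 1 CAGAC. A match is a description of these letters and shows no binding.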

How the data were processed

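RNA was sequenced from 11 glands and 8 tumors. Per the labels, RNA came from a Qiagen total RNA purification and a stranded total RNA kit; the study's methods name TRIzol, an RNeasy kit and an mRNA kit, with 75-bp pairs. Per the submitters' notes, reads were aligned to GRCm38 with TopHat2 2.1.1 and Bowtie2. The signal values, as deposited by the authors, are read counts already divided by 1 size factor for each library; the counting tool, its annotation and its use of strand were not given in the sources used here. Values were whole multiples of 1 step in each library, from which reads were recovered (100% whole within 0.05 reads; in T N replicate 3 the step is too near 1 to tell). GENCODE vM21 named 45229 genes (98.16%).

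Each comparison was fitted on its own 2 groups with limma 3.58.1 (eBayes with trend) in R 4.3.3 on log2(normalized count + 1), for genes with at least 10 normalized counts in as many samples as the smaller group has, with Benjamini-Hochberg adjustment over all genes tested; the interaction used the 4 *N* and *NP* groups. Alternatives were other pseudocounts (0.5 and 5), filters, TMM scaling, edgeR 4.0.16 and DESeq2 1.42.0 on recovered reads, 1 fit of 5 groups, a replicate block, averaging T NP replicates 1 and 2, a skeletal muscle score (mean log2 value of its 12 markers) as covariate, and leaving out libraries. Named are all 9 genes, the 2 largest rises and falls called in each of 7 pathway lists, the 3 genes most alike among those with a mean of at least 50, and of 11 marker lists the most abundant gene and genes at 0; not every gene that falls under these rules is named. Members and lists were chosen with earlier results of these data known.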

Additional observations from a re-analysis of the deposited data

Results flagged for a closer look

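Within groups of 4 libraries, 248 sets of values were checked for 1 library far from the other 3. On the log2 scale, the gap from the highest or lowest library to its nearest neighbour was divided by the range of the group and held to the 95% limit of Dixon's test. That limit is exceeded by chance in about 1 in 20 sets if values are normally distributed. A tight group can thus exceed it with a smaller fold difference than a spread one. 15 sets exceeded it, none of them a set of the 9 genes.

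T N replicate 3 exceeded it as the highest T N tumor in *Mstn* (14.14 normalized counts), *Eng* (832.1) and *Snai2* (24.24), and in summed endothelium (5956) and B cell markers (491.8). T NP replicate 3 exceeded it as the highest of its group in *Fbn1* (6587), *Fstl1* (2793) and summed endothelium markers (5129). MG N replicate 2 exceeded it as the highest of its group in *Fbn1* (50797) and *Ltbp4* (5158) and as the lowest in *Id2* (440.2). MG N replicate 4 exceeded it as the lowest of its group in summed skeletal muscle markers (363.5) and as the highest in T cell markers (4701). MG NP replicate 1 exceeded it as the highest of its group in *Eng* (2721), and MG NP replicate 4 as the lowest in summed luminal markers (11485).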

How the results depend on the processing

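Of the 22 called results for the 9 genes, 15 kept their direction and call under every alternative run. Over 408 values under alternatives, 387 kept the call, 20 lost it and 1 turned. Dropping the fold threshold brought 11241 genes in MG N against MG WT. *Inhba* has no value in comparisons where the filter that asks for a mean of 50 left it untested. It rests on few reads, 4 to 110 in the 16 libraries outside MG WT.

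With the skeletal muscle score as a covariate, MG NP against MG WT gave 1933 genes, 1 of the 9 genes and 22 genes of the pathway lists. *Tgfb1* turned to 0.46, *Mstn* to -3.06 and *Cilp* to -0.98, while the uncalled *Inhba* and *Tgfbr1* went to -2.01 and -1.35. T NP against MG NP gave 4257 genes. In both comparisons the groups did not overlap in summed muscle markers, so these fits cannot cleanly separate muscle content from group. In MG NP against MG N, *Tgfb3*, *Tgfbr1* and *Ltbp2* turned to -0.19, -0.23 and 0.2 with the score, and *Inhba* went to 0.17, *Tgfb1* to 0.65, *Tgfb2* to 0.22 and *Smad7* to 0.74. The first 3 turned to -0.04, -0.04 and 0.03 without MG NP replicates 2 and 4, an omission chosen after seeing the data, and *Tgfb1* went to 0.66. That omission gave 5 genes in the interaction and turned *Tgfbr2* there to -0.12. TMM scaling turned *Smad7* in T NP against MG NP to 0.02.

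DESeq2 called 519 genes in MG NP against MG N, 85 in T NP against T N and 327 in the interaction, with 5, 1 and 1 genes of the pathway lists, and 1 of the 9 genes in T NP against T N. With 5 groups in 1 fit, 16 and 26 genes were called in the first 2 of these. The 7 genes of T NP against T N became 0 with a pseudocount of 0.5, 0 with the filter at 50, 0 by edgeR, 0 with the replicate block and 0 with T NP replicates 1 and 2 averaged. Samples of different groups share only a replicate number: correlations between those of the same number ran from -0.28 to 0.319, and not every sample correlated best with its own number. The replicate block gave 6759 genes for MG N and 5060 for MG NP glands against MG WT, 5955 in T N against MG N, 6697 in T NP against MG NP and 0 in MG NP against MG N. With it *Tgfb1* (-1.12), *Tgfb2* (-1) and *Chrd* (1.22) were not called in MG NP against MG WT, nor *Tnc* (2.23) in T N against MG N.

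Leaving out 1 library at a time gave 0 to 318 genes and 0 to 1 genes of the pathway lists in MG NP against MG N (the highest without MG NP replicate 3). It gave 0 to 52 genes and 0 to 1 of the 9 in T NP against T N (the highest without T N replicate 1), and 0 to 194 genes in the interaction (194 without MG NP replicate 3, 20 without T N replicate 1 and 2 without MG NP replicate 4). Uncalled values that changed sign were *Tgfb1* (-0.45 to 0.14) and *Tgfbr1* (-0.19 to 0.05) in T N against MG N, and *Tgfbr1* (-0.03 to 0.22) and *Smad7* (-0.18 to 0.06) in T NP against MG NP. The same held for *Tgfb1* (-0.22 to 0.27) and *Tgfb3* (-0.12 to 0.18) in MG NP against MG N, *Inhba* (-0.56 to 0.06) in T NP against T N, and *Tgfb2* (-0.26 to 0.25) and *Tgfbr2* (-0.2 to 0.24) in the interaction. The cause was not tested.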
